A study of Mus musculus with 35 samples.

Results

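Leukocyte adhesion molecules are the proteins with which a circulating white cell slows down, stops and leaves the blood. The 7 genes described here are Sele, Selp, Icam1, Icam2, Vcam1, Itgal and Itga4, found by gene name among the 25655 genes of each of 8 comparison tables. All 7 were present and had a test result in all 8 tables. The mice were wild type, described as CX3CR1 wild type in the series text, and messenger RNA of their retinas was sequenced in 35 samples of 7 groups. Retina after 6, 8 and 10 weeks of diabetes made up the groups D6, D8 and D10, with 5 samples each, of which D8 and D10 are also labelled PBS. In D8 depleted (8 weeks of diabetes, 4 samples) the microglia, which are the tissue's own macrophages, had been depleted over 2 weeks. They were depleted for 2 weeks and then allowed to recover for 2 weeks in D10 repopulated (10 weeks of diabetes, 5 samples) and in ND repopulated (no diabetes, 5 samples). The last group was non-diabetic retina without any such treatment in its label (ND, 6 samples), and the labels hold no ND group per time, although the series text mentions one. The labels call the depleting treatment DTx and the series text names PLX-5622, so only the word depletion is used here. The labels do not say how diabetes was induced, nor that each sample came from a separate animal, so p-values measure only the spread between these samples.

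In the leukocyte adhesion cascade, selectins on activated endothelium catch passing leukocytes and let them roll. Integrins on the leukocyte then bind ligands of the immunoglobulin family on the vessel wall, and the cell stops and crosses. Inflammatory cytokines switch on the selectins and several of these ligands through transcription factors such as NF-kB, and leukocytes that stick in capillaries are a known feature of the diabetic retina. Sele (E-selectin) is made by activated endothelium, and Selp (P-selectin) is stored in endothelial and platelet granules. Icam1 and Icam2 are ligands of the integrin LFA-1, whose alpha chain is Itgal. Vcam1 is the ligand of VLA-4, whose alpha chain is Itga4.

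The promoters of the 3 genes with RefSeq entries that were higher in every comparison of diabetic with ND retina are printed first, because their known inducers act through short motifs in this region. Each is the 250 bases before the transcription start, written 5′ to 3′ from RefSeq on GRCm38.p6, with motif matches in capitals. Icam1 is chr9:21015690-21015939, Sele is chr1:164047984-164048233 and Selp is chr1:164115014-164115263, all on the plus strand.
Icam1: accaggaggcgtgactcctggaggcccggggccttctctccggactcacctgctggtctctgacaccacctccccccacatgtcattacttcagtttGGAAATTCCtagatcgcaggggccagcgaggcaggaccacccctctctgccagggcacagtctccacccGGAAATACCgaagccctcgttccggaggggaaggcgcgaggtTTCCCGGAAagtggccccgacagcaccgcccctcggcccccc
Sele: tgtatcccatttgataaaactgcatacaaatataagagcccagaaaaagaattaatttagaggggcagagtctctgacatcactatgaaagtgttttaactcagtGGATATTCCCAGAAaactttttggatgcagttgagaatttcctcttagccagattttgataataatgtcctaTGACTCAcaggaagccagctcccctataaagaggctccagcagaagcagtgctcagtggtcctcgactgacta
Selp: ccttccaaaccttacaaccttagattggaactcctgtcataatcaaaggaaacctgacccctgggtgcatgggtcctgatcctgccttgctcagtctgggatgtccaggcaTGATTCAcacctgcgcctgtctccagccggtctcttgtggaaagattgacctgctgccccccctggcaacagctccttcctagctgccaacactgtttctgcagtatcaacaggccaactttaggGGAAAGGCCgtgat
The motifs searched on both strands were GGNNNTTCC for NF-kB, TTCNNNGAA for STAT factors, TGANTCA for AP-1 and an interferon response (IRF) motif. Icam1 held GGAAATTCC from 153 to 145 bases before the start, GGAAATACC from 84 to 76 bases before it, whose match to the NF-kB letters is on the other strand, and the STAT match TTCCCGGAA from 42 to 34 bases before it. Sele held the NF-kB match GGATATTCC, from 145 to 137 bases before the start, which overlaps the STAT match TTCCCAGAA, from 140 to 132 bases before it. A further match in Sele was the AP-1 match TGACTCA, from 73 to 67 bases before the start. Selp held GGAAAGGCC, whose match to the NF-kB letters is on the other strand, from 14 to 6 bases before the start and the AP-1 match TGATTCA from 139 to 133 bases before it. The RefSeq promoter of Itga4 held none of these letters, and Icam2, Vcam1 and Itgal had no entry, so 4 of 7 genes were searched. Of 32851 promoters of this length, 15.7% held the NF-kB letters, 7.02% those of STAT, 6.75% those of AP-1 and 2.98% the IRF motif. A match of letters is a description of the sequence and not a binding site.

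**Figure D1:**
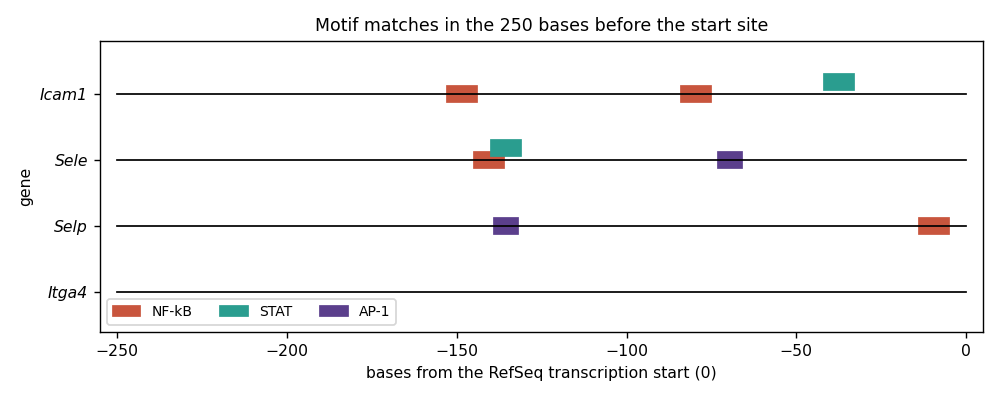
Motif matches in the promoters of Icam1, Sele, Selp and Itga4. The horizontal axis gives bases from the RefSeq transcription start (0) and each line is the 250 bases before it, with boxes for NF-kB, STAT and AP-1 matches. Icam1 has 2 NF-kB boxes, Sele and Selp have 1 each, and Itga4 has none.

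The authors' tables hold for each gene a mean (that of the group with the larger one), a log2 fold change, a p and a false discovery rate (FDR) p-value. A gene is called here at an FDR p under 0.05 over the whole table. No value per sample was used, so the spread within groups, the overlap of samples and the sequencing depth are unknown. The standard error (SE) beside a log2 fold change is the one that the deposited p implies. The unit of the group means is not stated, so levels are compared between groups for the same gene and never between genes. A group mean that no table shows was taken from the other group's mean and the fold change, and is called implied. The sample titles also number D8 and D10 in a run apart from the other 5 groups, called the numbering divide here. What that numbering stands for is not stated. D8 or D10 against any of those groups crosses both that divide and PBS.

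At 6 weeks of diabetes 4 of the 7 genes were higher in D6 than in ND (Icam1, Vcam1, Sele and Selp) and none was lower, while 14.1% of all genes tested were called higher. At 8 weeks the same 4 genes were higher in D8 than in ND, against a background of 2.33%. At 10 weeks 5 genes were higher in D10 than in ND, those 4 and Itgal, against a background of 5.59%. The median log2 fold change of the 7 genes was 1.82 for D6, 2.00 for D8 and 3.09 for D10 against ND, where that of all genes tested was 0.04, 0.00 and 0.00. D6 against ND crosses neither the numbering divide nor PBS. In bulk retina, more cells of a type and more RNA per cell cannot be told apart.

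**Figure D2:**
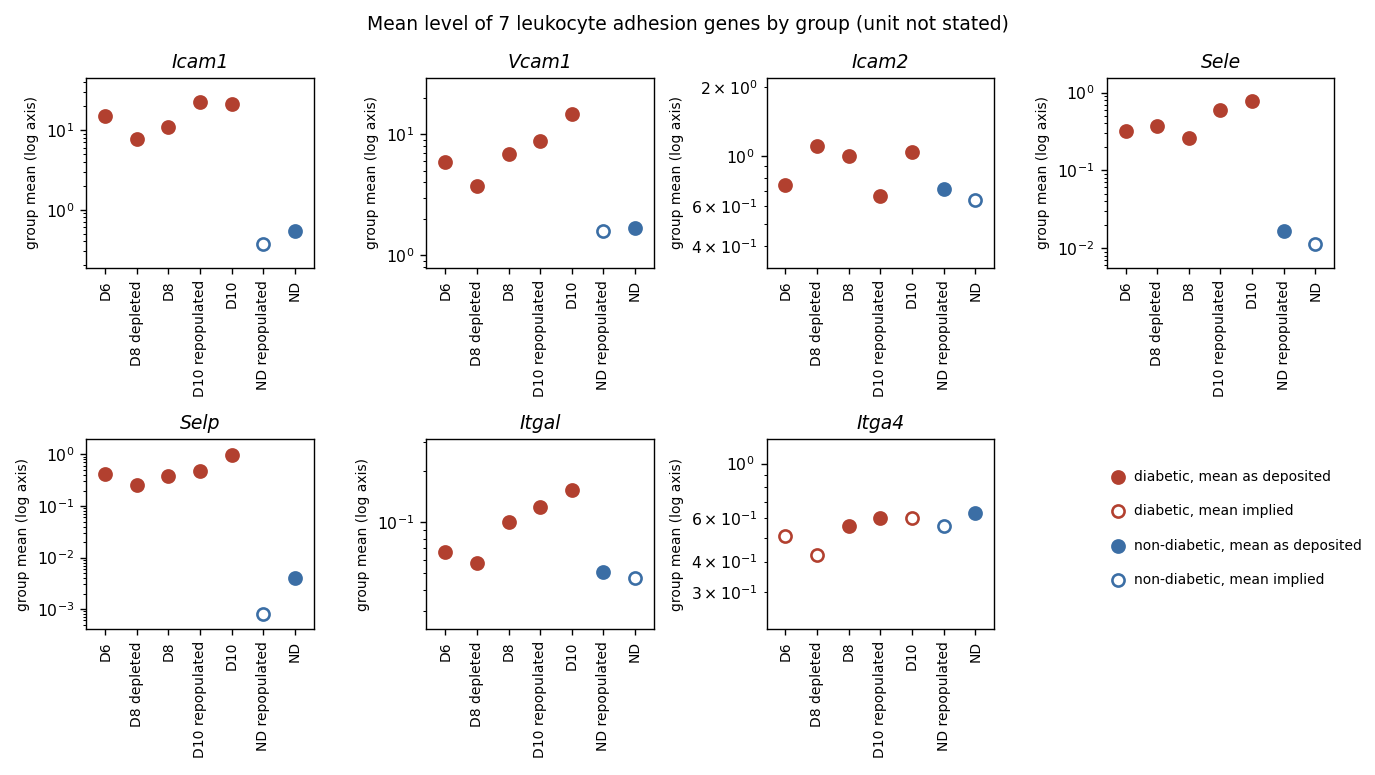
Group means of the 7 genes. Each panel is 1 gene, with the group on the horizontal axis and the mean level (unit not stated, log axis) on the vertical axis; filled circles are means in the authors' deposited tables, open circles implied means, diabetic groups red and non-diabetic groups blue. The 5 diabetic groups lie above both non-diabetic groups for Icam1, Vcam1, Sele and Selp, while Icam2 and Itga4 stay within a narrow range.

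The endothelial selectins were close to 0 in non-diabetic retina and present in every diabetic group. Sele, on chromosome 1 at 163875803 to 163885246 in GRCm39, averaged 0.317 in D6, 0.261 in D8 and 0.771 in D10 in the authors' deposited tables, against an implied 0.0111 in ND. Its log2 fold change over ND in the authors' deposited tables was 4.85 in D6 (SE 0.96, FDR p = 1.87e-05), 4.56 in D8 (SE 0.96, FDR p = 0.000278) and 6.11 in D10 (SE 0.96, FDR p = 1.84e-08). Selp lies further along the same chromosome, at 163942833 to 163977595. Its mean in the authors' deposited tables was 0.42 in D6, 0.387 in D8 and 0.992 in D10, against 0.00392 in ND. The log2 fold change of Selp over ND was 6.38 in D6 (SE 1.12, FDR p = 9.37e-07), 6.24 in D8 (SE 1.12, FDR p = 5.55e-06) and 7.60 in D10 (SE 1.11, FDR p = 1.26e-09) in the authors' deposited tables. Both genes were highest in D10 among all 7 groups. With ND this close to 0 their fold changes depend on the authors' model and are not bounds. For Selp the ratio of shown means differed from the deposited fold change by up to 0.398 log2, against at most 0.0441 for the other members.

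The ligands of the immunoglobulin family split, with Icam1 and Vcam1 higher in diabetic retina and Icam2 not called against ND at 6, 8 or 10 weeks. Icam1, on chromosome 9 at 20927281 to 20940113, averaged 15.2 in D6, 10.9 in D8 and 21.1 in D10, against 0.54 in ND, in the authors' deposited tables. These are rises of 28.2-fold in D6, 19.9-fold in D8 and 38.4-fold in D10 over ND in the authors' deposited tables. On the log2 scale Icam1 rose by 4.82 in D6 (SE 0.64, FDR p = 1.86e-11), 4.31 in D8 (SE 0.64, FDR p = 7.5e-09) and 5.26 in D10 (SE 0.64, FDR p = 5.03e-14) in the authors' deposited tables. By p it ranked number 33 of all genes in D6 against ND and number 27 in D8 against ND.

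Vcam1, on chromosome 3 at 115903598 to 115923337, averaged 5.92 in D6, 6.85 in D8 and 14.5 in D10, against 1.69 in ND, in the authors' deposited tables. It was therefore well above 0 in ND, and its folds over ND in the authors' deposited tables were 3.54 in D6, 3.99 in D8 and 8.49 in D10. The log2 fold change was 1.82 in D6 (SE 0.40, FDR p = 0.000115), 2.00 in D8 (SE 0.40, FDR p = 8.14e-05) and 3.09 in D10 (SE 0.40, FDR p = 1.81e-12) in the authors' deposited tables. Icam2, the constitutive endothelial ligand of LFA-1, lies on chromosome 11 at 106268482 to 106278901. It averaged 0.745 in D6, 0.999 in D8 and 1.04 in D10 in the authors' deposited tables, against an implied 0.641 in ND. The 95% interval of its log2 fold change over ND ran from -0.32 to 0.83 in D6, from 0.06 to 1.19 in D8 and from 0.13 to 1.26 in D10. The FDR p of Icam2 against ND was 0.573 in D6, 0.345 in D8 and 0.154 in D10 in the authors' deposited tables.

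Of the integrin alpha chains, Itgal was called at 10 weeks and Itga4 at none of the 3 times. Itgal, on chromosome 7 at 126895432 to 126934310, averaged 0.0668 in D6, 0.0998 in D8 and 0.155 in D10 in the authors' deposited tables, against an implied 0.0467 in ND. Its log2 fold change over ND in the authors' deposited tables was 0.57 in D6 (SE 0.42, FDR p = 0.342), 1.08 in D8 (SE 0.41, FDR p = 0.159) and 1.73 in D10 (SE 0.40, FDR p = 0.000471). Itga4, on chromosome 2 at 79085770 to 79163467, averaged 0.556 in D8, against 0.628 in ND, in the authors' deposited tables, with implied means of 0.506 in D6 and 0.599 in D10. The log2 fold change of Itga4 over ND was -0.31 in D6 (FDR p = 0.168), -0.21 in D8 (FDR p = 0.744) and -0.08 in D10 (FDR p = 0.897) in the authors' deposited tables. Its 95% intervals reached from -0.64 in D6 at the lowest to 0.25 in D10 at the highest.

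**Figure D3:**
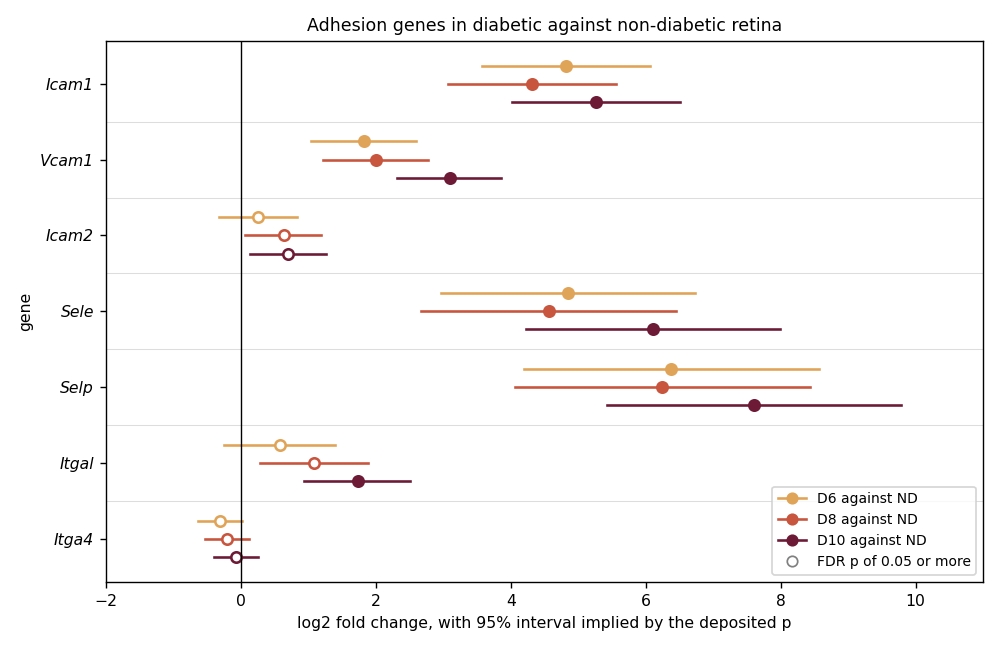
Log2 fold changes of the 7 genes in D6, D8 and D10 against ND. Points are the log2 fold changes of the authors' deposited tables and bars the 95% interval implied by the deposited p; open points have an FDR p of 0.05 or more. Icam1, Vcam1, Sele and Selp are called at all 3 times, Itgal in D10, and Icam2 and Itga4 at none.

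For all 7 genes the log2 fold change over ND was higher in D10 than in D8, but the difference between both times was not called for any of them. The difference was tested as the gap between both log2 fold changes with their variances added, by a normal test with Benjamini-Hochberg adjustment over 19013 genes. An exact test over samples was not possible without values per sample. It called 0 of 7 members and 0% of all genes, with 219 genes and no member at an unadjusted p under 0.05. Vcam1 came nearest, with a difference of 1.09 (SE 0.56, interval -0.01 to 2.19) and an unadjusted p of 0.0518. Icam1 differed by 0.95 (interval -0.81 to 2.71), Sele by 1.55 (interval -1.11 to 4.21) and Selp by 1.36 (interval -1.73 to 4.45). Adding variances overstates the error here, because both comparisons share the ND samples. With an estimate of that shared covariance taken off, the normal test gave Vcam1 an SE of 0.34 and an unadjusted p of 0.00131. In the same test the unadjusted p was 0.0114 for Sele, 0.0489 for Selp and 0.0573 for Icam1, and higher for the other members. After Benjamini-Hochberg adjustment none was called, with 0.167 for Vcam1 and 0.497 for Sele. D10 and D8 are on the same side of the numbering divide and both carry PBS.

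Depletion of microglia at 8 weeks changed none of the 7 genes past the threshold. Against D8, 0 of 7 were called in D8 depleted, with none at an unadjusted p under 0.05, while 10.8% of all genes tested were called in either direction. The median log2 fold change of the 7 genes was -0.53, against 0.00 over all genes tested. Icam1 averaged 7.68 in D8 depleted and 10.9 in D8 in the authors' deposited tables, a log2 fold change of -0.53 (SE 0.70, FDR p = 0.677). Its 95% interval, from -1.90 to 0.84, holds a fall as well as a rise. Vcam1 averaged 3.73 in D8 depleted and 6.85 in D8 in the authors' deposited tables, a log2 fold change of -0.89 (SE 0.47, FDR p = 0.222). For Sele the means in the authors' deposited tables were 0.376 in D8 depleted and 0.261 in D8 (log2 0.50, SE 0.82, FDR p = 0.749). For Selp they were 0.26 in D8 depleted and 0.387 in D8 in the authors' deposited tables (log2 -0.59, SE 0.96, FDR p = 0.745). Sele and Selp thus had estimates of opposite sign, each within 1 SE of 0.

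The remaining 3 members had log2 fold changes of 0.12 for Icam2 (FDR p = 0.866), -0.82 for Itgal (FDR p = 0.354) and -0.37 for Itga4 (FDR p = 0.351) between D8 depleted and D8 in the authors' deposited table. The intervals are wide, so the missing calls do not show that the levels were alike. In the same comparison 14 of 15 microglia markers fell, with a median of -3.23. The complement gene C1qa fell by 6.92 and Csf1r, the growth factor receptor on which microglia depend, fell by 3.15 on the log2 scale in the authors' deposited table. The summed level of the 15 microglia markers was 8.1 in D8 depleted and 36.7 in D8. D8 depleted against D8 also crosses the numbering divide and PBS, and these and the depletion cannot be told apart.

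Against ND, which lies on its own side of that divide, D8 depleted still had 5 genes higher and 1 lower. The background was 15.5% of all genes tested called higher and 13% called lower, so calls were common in this comparison. Icam1 was higher by 3.79 (SE 0.68, FDR p = 1.13e-06) and Vcam1 by 1.11 (SE 0.42, FDR p = 0.0337) on the log2 scale in the authors' deposited table. Sele was higher by 5.06 (SE 1.00, FDR p = 1.25e-05) and Selp by 5.65 (SE 1.16, FDR p = 2.57e-05) in the authors' deposited table. This was the only one of the 8 comparisons that called Icam2 or Itga4. Icam2 averaged 1.1 in D8 depleted in the authors' deposited table, against an implied 0.641 in ND, a rise of 0.76 (SE 0.31, FDR p = 0.0462). Itga4 averaged an implied 0.426 in D8 depleted, against 0.628 in ND in the authors' deposited table, and fell by 0.57 (SE 0.18, FDR p = 0.00828). Itgal had a log2 fold change of 0.27 (SE 0.45, FDR p = 0.695) in the authors' deposited table.

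After repopulation at 10 weeks 1 of the 7 genes, Vcam1, was lower in D10 repopulated than in D10, and none was higher. Only 0.267% of all genes tested were called lower in that comparison. Vcam1 averaged 8.79 in D10 repopulated and 14.5 in D10 in the authors' deposited tables. Its log2 fold change was -0.73 (SE 0.17, interval -1.05 to -0.40, FDR p = 0.00613), and by p it ranked number 31 of all genes in the authors' deposited table. This Vcam1 level was still 5.14-fold that of ND (log2 2.36, SE 0.40, FDR p = 2.23e-07) in the authors' deposited table. Icam1 averaged 22.6 in D10 repopulated and 21.1 in D10 in the authors' deposited tables, a log2 fold change of 0.09 (SE 0.25, interval -0.40 to 0.59, FDR p = 0.999). The interval leaves room for a rise or fall of Icam1 smaller than the one called for Vcam1.

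Selp averaged 0.483 in D10 repopulated and 0.992 in D10 in the authors' deposited tables. Its log2 fold change of -1.04 (SE 0.37) had an unadjusted p of 0.00499 and an FDR p of 0.282 in the authors' deposited table, so it was not called. Sele averaged 0.595 in D10 repopulated and 0.771 in D10 in the authors' deposited tables (log2 -0.37, SE 0.40, FDR p = 0.999). Icam2 averaged 0.666 in D10 repopulated and 1.04 in D10 in the authors' deposited tables (log2 -0.64, SE 0.34, FDR p = 0.726). The integrin chains had log2 fold changes of -0.33 for Itgal (SE 0.37) and 0.00 for Itga4 (SE 0.20), each with an FDR p of 0.999 in the authors' deposited table. The median over the 7 genes was -0.37, against -0.00 over all genes tested. In this comparison 4 of 15 microglia markers were lower, and their summed level was 21.3 in D10 repopulated and 38.9 in D10. C1qa fell by 1.34 on the log2 scale in the authors' deposited table, and the part of the microglia in the Vcam1 difference was not tested. D10 repopulated against D10 again crosses the numbering divide and PBS, which cannot be told apart from repopulation.

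Against ND, D10 repopulated had 5 members higher, where 7.49% of all genes tested were called higher. They were Icam1 (log2 5.36, SE 0.64, FDR p = 1.88e-14), Vcam1, Sele (5.74, SE 0.96, FDR p = 1.91e-07), Selp (6.56, SE 1.12, FDR p = 3.34e-07) and Itgal (1.40, SE 0.40, FDR p = 0.00809) in the authors' deposited table. The 41.1-fold difference of Icam1 from ND in the authors' deposited table was the largest of Icam1 in the 8 comparisons. Icam2 (log2 0.06, FDR p = 0.938) and Itga4 (log2 -0.07, FDR p = 0.843) were not called in the authors' deposited table.

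**Figure D4:**
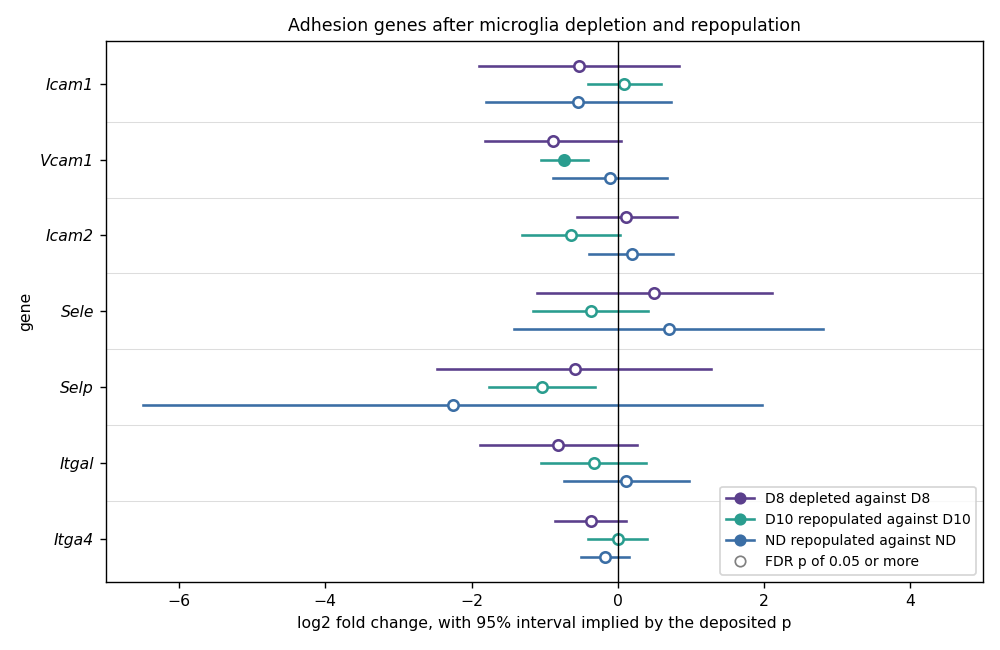
Log2 fold changes of the 7 genes in D8 depleted against D8, D10 repopulated against D10 and ND repopulated against ND. Points are the log2 fold changes of the authors' deposited tables and bars the 95% interval implied by the deposited p; open points have an FDR p of 0.05 or more. The 1 filled point is Vcam1 in D10 repopulated against D10, at -0.73.

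In non-diabetic retina, depletion followed by recovery changed none of the 7 genes past the threshold in ND repopulated against ND. None had an unadjusted p under 0.05, and 0.156% of all genes tested were called in either direction. Icam1 averaged an implied 0.372 in ND repopulated and 0.54 in ND in the authors' deposited table (log2 -0.54, SE 0.65). Vcam1 averaged an implied 1.58 in ND repopulated and 1.69 in ND in the authors' deposited table (log2 -0.10, SE 0.40). Sele averaged 0.0164 in ND repopulated in the authors' deposited table, against an implied 0.0111 in ND. Selp was at an implied 0.000816 in ND repopulated and 0.00392 in ND in the authors' deposited table, and the SE of its log2 fold change was 2.16. Both levels of Selp are too near 0 for a change to be read. Icam2 had a log2 fold change of 0.19 (SE 0.30), Itgal of 0.12 (SE 0.43) and Itga4 of -0.17 (SE 0.17) in the authors' deposited table.

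Diabetic and non-diabetic repopulated retina were set against each other through ND, a contrast that does not cross the numbering divide. The log2 fold change of ND repopulated over ND was subtracted from that of D10 repopulated over ND. Of the 7 genes 4 were called, while 2.54% of all genes were called in either direction. Icam1 was higher in D10 repopulated by 5.90 (SE 0.91, adjusted p = 9.29e-08), Vcam1 by 2.46 (SE 0.56, adjusted p = 0.00153), Selp by 8.83 (SE 2.43, adjusted p = 0.0176) and Sele by 5.04 (SE 1.44, adjusted p = 0.026), by the normal test on the authors' log2 fold changes with Benjamini-Hochberg adjustment. The value of Selp takes in the -2.26 (SE 2.16) of ND repopulated over ND, from levels too near 0 to be read. For Selp and Sele the sizes are therefore not bounds. Itgal differed by 1.28 (SE 0.59, adjusted p = 0.371), Icam2 by -0.13 (interval -0.94 to 0.69) and Itga4 by 0.10 (interval -0.36 to 0.56) in the same test on the authors' values.

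The effect of repopulation at 10 weeks was also set against 2 others, and none of the 7 genes was called in either test. Less the effect of depletion at 8 weeks, 0.601% of all genes were called, and Vcam1 differed by 0.16 (SE 0.50, interval -0.82 to 1.15). Less the effect of repopulation without diabetes, 0.153% were called, and Vcam1 differed by -0.63 (SE 0.43, interval -1.48 to 0.21). The fall of Vcam1 was thus called in D10 repopulated against D10 and not in D8 depleted against D8 or ND repopulated against ND, yet no difference between these effects was shown. D10 repopulated was last set against D8 depleted through ND, where 0.894% of all genes were called. In that test Vcam1 was higher in D10 repopulated by 1.25 (SE 0.58, adjusted p = 0.324) and Icam1 by 1.57 (SE 0.93, adjusted p = 0.49), and neither was called by the normal test on the authors' values with Benjamini-Hochberg adjustment. That error is overstated, because both comparisons share the ND samples. With an estimate of the shared covariance taken off, both were called, Vcam1 with an SE of 0.37 (adjusted p = 0.0148) and Icam1 with an SE of 0.55 (adjusted p = 0.0476), by the same test on the authors' values. Calls were then common, with 1792 of 19013 genes called, against 170 without that step.

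The order of the group means is given for Icam1 and Vcam1, and most neighbours in it were not tested against each other. Icam1 was highest in D10 repopulated (22.6) and D10 (21.1), followed by D6 (15.2), D8 (10.9) and D8 depleted (7.68) in the authors' deposited tables. Vcam1 had D10 (14.5) first and D10 repopulated (8.79) next, a pair that was called, and then D8 (6.85), D6 (5.92) and D8 depleted (3.73) in the authors' deposited tables. D8 depleted and the next group down, ND, were also called as different for Vcam1. D8 depleted was the lowest diabetic group for Icam1, Vcam1, Selp, Itgal and Itga4, but it was the highest of all groups for Icam2. D6 against D8 or D10 was not tested for any gene.

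Other genes of the cascade are described from lists of the steps in which they act. Of 8 further ligands of the immunoglobulin family, 2 were higher in D6, 2 in D8, 3 in D10, 3 in D8 depleted and 3 in D10 repopulated than in ND, and only Alcam in D8 depleted was lower. Of all genes tested 14.1% were called higher in D6, 2.33% in D8, 5.59% in D10, 15.5% in D8 depleted and 7.49% in D10 repopulated. Madcam1, the mucosal ligand of the integrin of Itga4 and Itgb7, was higher than ND by 6.75 in D6, 6.53 in D8, 7.69 in D10, 6.41 in D8 depleted and 6.38 in D10 repopulated on the log2 scale in the authors' deposited tables. Its mean was an implied 0.00266 in ND, and ran from 0.22 in D10 repopulated to 0.554 in D10 in the authors' deposited tables. With ND this close to 0 and an SE of 1.76 in D6, these sizes are not bounds. Mcam, an endothelial adhesion molecule, was higher than ND by 1.00 in D6, 1.01 in D8, 1.45 in D10, 0.71 in D8 depleted and 1.21 in D10 repopulated in the authors' deposited tables. None of the 8 was called in D8 depleted against D8, D10 repopulated against D10 or ND repopulated against ND.

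The list of rolling and tethering holds 17 genes, mostly the counter-receptors of the selectins and the enzymes that decorate them. In D6 against ND 4 were higher and 2 lower, in D8 against ND 1 was higher, and in D10 against ND 4 were higher. Of all genes tested 14.1% were higher and 9.31% lower in D6, 2.33% higher in D8 and 5.59% higher in D10. Cd44, a hyaluronan receptor that can also carry E-selectin ligands, was higher than ND by 1.43 in D6 and 2.06 in D10 on the log2 scale in the authors' deposited tables. Fut7, the fucosyltransferase that completes selectin ligands, was higher by 2.58 in D6 than in ND in the authors' deposited table. In D8 depleted against D8, 2 of 16 tested genes were higher and 3 lower, beside 5.85% and 4.9% of all genes tested. Selplg, which encodes the main leukocyte ligand of P-selectin and is also expressed by microglia, fell by 4.47 (SE 0.57, FDR p = 8.27e-12) there, while Fut7 rose by 2.22 in the authors' deposited table. In D10 repopulated against D10 none of 16 was called.

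Among 20 integrin chains and activators, of which 19 were tested, 4 were higher in D6, 2 in D8 and 4 in D10 than in ND, and none was lower, beside 14.1%, 2.33% and 5.59% of all genes tested called higher at these times. Itgb2, the beta chain that Itgal needs to form LFA-1, was higher by 1.51 (SE 0.32, FDR p = 9.02e-05) in D10 than in ND in the authors' deposited table. Itgam, the alpha chain of Mac-1, another receptor of Icam1, was higher by 1.15 in D8 and 1.97 in D10 than in ND in the authors' deposited tables. In D8 depleted against D8 Itgb2 fell by 2.25 (SE 0.50, FDR p = 0.00056) in the authors' deposited table. In D10 repopulated against D10 Itgam fell by 1.28 (SE 0.28, FDR p = 0.00326) in the authors' deposited table, and it was the only one of the 19 called. Microglia carry Itgam and Itgb2 too, and their markers moved in the same 2 comparisons, with the values given above; their part in these falls was not tested.

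Among 13 junction molecules through which leukocytes cross, 1 was higher in D6, 0 in D8 and 2 in D10 than in ND, and the median log2 fold change was -0.04, -0.04 and -0.00. Cdh5, the cadherin of endothelial junctions, was higher than ND by 0.63 in D6, 0.69 in D10 and 1.05 in D10 repopulated in the authors' deposited tables. These counts stand beside 14.1% of all genes tested called higher in D6, 2.33% in D8 and 5.59% in D10.

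**Figure D5:**
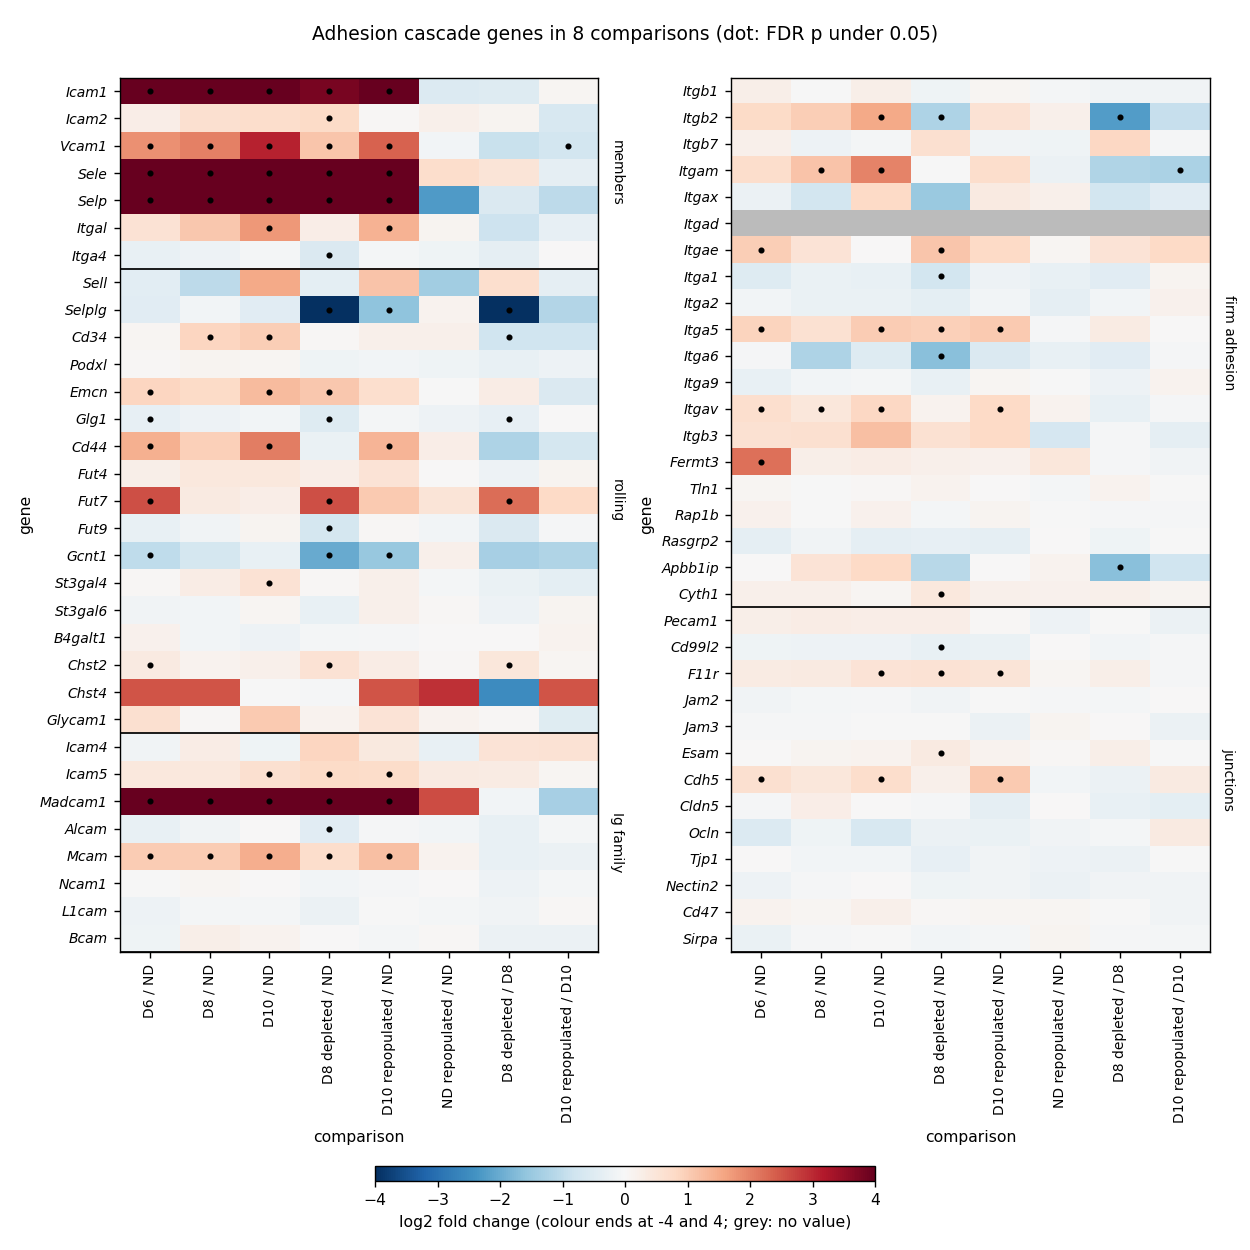
Log2 fold changes of adhesion cascade genes in the 8 comparisons. Rows are genes grouped as the 7 members, rolling, immunoglobulin family, firm adhesion and junctions, columns are comparisons, colour is the log2 fold change of the authors' deposited tables with its ends at -4 and 4, and a dot marks an FDR p under 0.05. Icam1, Sele, Selp and Madcam1 reach the end of the scale or come near it in all 5 comparisons of diabetic with ND retina, and Selplg does so at the low end in D8 depleted.

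Genes of the NF-kB pathway and the inducers of endothelial adhesion molecules were also described. Of 17 NF-kB subunits, inhibitors and feedback genes, 9 were higher and 3 lower in D6, 7 higher in D8 and 10 higher in D10 than in ND. Of all genes tested, 14.1% were higher and 9.31% lower in D6, 2.33% higher in D8 and 5.59% higher in D10. The medians were 0.93 in D6, 0.86 in D8 and 1.30 in D10. The inhibitor gene Nfkbia, a feedback target of NF-kB, was higher than ND by 1.91 in D6, 1.20 in D8 and 1.81 in D10 on the log2 scale in the authors' deposited tables. Birc3, an inhibitor of apoptosis and NF-kB target, was higher than ND by 3.96 in D6, 3.49 in D8 and 4.37 in D10 in the authors' deposited tables. In D10 repopulated 10 were higher and 2 lower than in ND, and in D8 depleted 5 were higher and 3 lower than in ND. Of all genes tested 7.49% were called higher and 4.19% lower in D10 repopulated, and 15.5% higher and 13% lower in D8 depleted. None of the 17 was called in D8 depleted against D8, in D10 repopulated against D10 or in ND repopulated against ND.

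Of 19 inducers and their receptors, 12 were higher in D6, 7 in D8, 7 in D8 depleted, 13 in D10 and 11 in D10 repopulated than in ND, and none was lower. The share of all genes called higher was 14.1% in D6, 2.33% in D8, 15.5% in D8 depleted, 5.59% in D10 and 7.49% in D10 repopulated. Tnf, a cytokine that induces all of Sele, Icam1 and Vcam1, was higher than ND by 6.32 in D6, 5.60 in D8, 4.43 in D8 depleted and 6.70 in D10 repopulated on the log2 scale in the authors' deposited tables. Il6, a cytokine that signals through Stat3, was higher than ND by 8.02 in D6, 6.88 in D8, 6.02 in D8 depleted and 9.22 in D10 repopulated in the authors' deposited tables. Irf1, a transcription factor gene induced by interferon, was higher than ND by 2.34 in D6, 1.80 in D8, 1.34 in D8 depleted, 2.59 in D10 and 2.75 in D10 repopulated in the authors' deposited tables. Again none of the tested genes was called in D8 depleted against D8 or in D10 repopulated against D10.

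The genes whose 6 log2 fold changes against ND lay nearest to those of Icam1 and Vcam1 were found among 14622 genes, by the root mean square of the differences. Nearest to Icam1 were the interferon-induced guanylate-binding protein genes Gbp5 (0.38), Gbp10 (0.41) and Gbp2 (0.42). Gbp5 was higher than ND by 4.75 in D6, 4.59 in D8, 5.75 in D10, 3.62 in D8 depleted and 5.77 in D10 repopulated in the authors' deposited tables. Nearest to Vcam1 were Nfkb2 (0.19), which encodes an NF-kB subunit, Glipr2 (0.20) and the class I histocompatibility gene H2-Q7 (0.21). Nfkb2 was higher than ND by 2.05 in D6, 2.25 in D8, 3.06 in D10 and 2.54 in D10 repopulated in the authors' deposited tables. In D8 depleted Nfkb2 had a log2 fold change of 0.87 over ND (FDR p = 0.184) in the authors' deposited table and was not called. Gbp10 and H2-Q7 belong to families with near-identical copies, so their values are uncertain. The 6 comparisons share the ND samples, so likeness of pattern is a description only.

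Markers of endothelium, Muller glia, astrocytes, leukocytes and platelets were followed as lists. Which cells of the retina made the 7 genes was not tested. The 16 endothelial markers were all above a level of 0.05, and their summed level was 98.8 in D6, 112 in D8 depleted, 120 in D8, 99.8 in D10 repopulated, 115 in D10, 103 in ND repopulated and 114 in ND. Most of the sum in ND was Slc2a1 (53.1) and Kdr (19.3), while Pecam1 was at 2.14 and Cdh5 at 1.04 in the authors' deposited tables. The sum therefore mainly follows a few genes and is no measure of the amount of endothelium. Of them 3 were higher and 3 lower in D6 than in ND, 1 was higher in D8, and 3 were higher and 3 lower in D10. Of all genes tested 14.1% were called higher and 9.31% lower in D6, 2.33% higher in D8, and 5.59% higher and 1.41% lower in D10. Tek, the angiopoietin receptor, was lower by log2 -1.25 in D6 and -1.60 in D10, and Ly6c1 was higher by 1.21 in D6 and 1.38 in D10, than in ND in the authors' deposited tables. Beside the same shares of all genes tested called higher, 3 of 7 markers of venular or activated endothelium were higher in D6, 1 in D8 and 2 in D10. Lrg1 was higher by 4.44 in D6, 3.92 in D8 and 5.25 in D10 than in ND in the authors' deposited tables. The median of these 7 was only 0.32 in D6, 0.27 in D8 and 0.40 in D10, with Vwf at -0.37 and Ephb4 at -0.36 in D6. Of 14 markers of Muller glia and astrocytes, beside the same shares, 3 were higher and 4 lower in D6 than in ND. In D8 1 of them was higher, and in D10 2 were higher and 4 lower. Gfap was higher by 1.70 in D6, 1.10 in D8 and 1.96 in D10, while Kcnj10 was at log2 -0.65 in D6 and -0.59 in D10.

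The 13 neutrophil and monocyte markers had a summed level of 10.6 in D6, 24.2 in D8 depleted, 7.32 in D8, 19 in D10 repopulated, 14.3 in D10, 0.874 in ND repopulated and 3.28 in ND. They thus moved with Icam1, Sele and Selp between diabetic and non-diabetic retina, with 5 of 13 higher in D6, 1 in D8 and 6 in D10 than in ND. Of all genes tested 14.1% were called higher in D6, 2.33% in D8 and 5.59% in D10. These shares are also the background for the lists that follow. S100a9, a calcium-binding protein gene of these cells, was higher than ND by 1.87 in D6 and 2.40 in D10 on the log2 scale in the authors' deposited tables. In D8 depleted against D8, of 12 tested markers 2 rose and 1 fell, beside 5.85% of all genes tested called higher and 4.9% called lower. The log2 fold changes were 2.04 for S100a9, 2.15 for Plac8 and -1.83 for Csf3r in the authors' deposited table. The sum of 24.2 in D8 depleted is mostly S100a9 (14.2) and S100a8 (6.95) in the authors' deposited tables. The 16 lymphocyte markers, which bear on Itgal and Itga4, summed to 0.827 to 2.22 over the 7 groups, and 11 or 12 of the 16 were under a level of 0.05 in every group. Of the lymphocyte markers with a test, 2 of 13 were higher in D6, 0 of 11 in D8 and 2 of 10 in D10 than in ND, and none was lower. The count in D6 was near the share of all genes called higher. The 2 called in D10, where Itgal was called, were Cd8a (log2 1.55, FDR p = 0.0123) and Lck (0.98, FDR p = 0.0316) in the authors' deposited table. The T cell receptor gene Cd3e was at 0.00768 in ND in the authors' deposited table and at an implied 0.00213 in D10, with no FDR p. Of 10 markers of all leukocytes, 2 were higher in D6, 2 in D8 and 3 in D10 than in ND, among them Cd52 (1.62) and Rac2 (2.01) in D10 in the authors' deposited table. In D8 depleted against D8, 7 of these 10 fell, beside 4.9% of all genes tested, and microglia also express several of them. The 10 platelet markers, which bear on Selp, summed to 3.03 to 6.31. Most of the highest sum, that of D6, was Gp1bb (5.38), while Pf4 was at 0.155 there, in the authors' deposited tables. Against ND 1 of these markers was called in D6 and in D8 depleted, and none in D8, D10 or D10 repopulated. Of all genes tested 15.5% were called higher in D8 depleted and 7.49% in D10 repopulated. The part of infiltrating leukocytes in the differences of the 7 genes was not tested.

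Markers of lens, red cells and pigment epithelium differed widely between groups as well. The 18 lens markers summed to 9807 in D6, 41 in D8 depleted, 112 in D8, 1972 in D10 repopulated, 2591 in D10, 7790 in ND repopulated and 4010 in ND. The 7 red cell markers summed to 25.7 in D6, 38.9 in D8 depleted, 8.47 in D8, 129 in D10 repopulated, 9.37 in D10, 44.3 in ND repopulated and 99 in ND. Icam1, Vcam1, Sele and Selp were higher than ND both in D6, where lens markers were above ND, and in D8, where they were below; their part in the values was not tested. The 10 pigment epithelium markers summed to 103 in D10 repopulated and 42.4 in D10, beside the fall of Vcam1, and their part in it was not tested.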

How the data were processed

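Stranded poly(A) libraries of 35 retina samples in 7 groups were sequenced as paired reads (NovaSeq), per the labels' protocols. Base calls were made with bcl2fastq and the genome was GRCm39, per the submitters' processing notes. Which aligner, counter and test were run is not given in the sources used here. What the authors made available is 8 comparison tables of 25655 genes, each for a pair of groups. The signal level is the mean of the group with the larger one, per the file headers, in an unstated unit. The log2 fold change, the signed fold change (a score with negative values for falls), the p-value and the FDR p-value are as deposited by the authors. The FDR p-value equals a Benjamini-Hochberg value over the genes that have one, within 0.000489. In the table of D10 repopulated and D10 the authors put D10 on top, so that sign was reversed here.

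Calls were made at an FDR p under 0.05. The size of a log2 fold change over the normal quantile of its p gave the standard error and 95% intervals. Differences between comparisons were tested with added variances, after the step was tested on simulated data. The simulated pair of comparisons shared no samples, and its effects were planted in genes with a small SE. It therefore does not cover the differences through the shared ND, nor members with a large SE. Members, lists and motifs were chosen with earlier results of these data known. Named are all 7 members, the 4 genes of a list with the smallest p in a comparison, defining markers and the 3 genes nearest to Icam1 and to Vcam1. Lists are described by counts and medians. Cd99 was not matched, so 13 of 14 junction genes were used. Alternatives were thresholds of 0.01 and 0.10, a minimum absolute log2 of 1, the lowest 40 percent of mean level left out, no filter, centring, and the shared ND covariance taken off. The tools were scipy 1.17.1, pandas 2.3.3, matplotlib 3.10.9 and numpy 2.4.6 in Python 3.11.15. Depth per sample is unknown, so no counting interval is given.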

Additional observations from a re-analysis of the deposited data

How the results depend on the processing

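Of 73 alternatives for counts of called members, 68 gave a count within 1.5 times the one reported and 5 did not. At an FDR p under 0.01, 3 members were called higher in D8 depleted than in ND, as Vcam1 and Icam2 lost their calls. With an absolute log2 of at least 1 required, 0 members were called lower there, as Itga4 lies under that size, and Icam2 lost its call too. With the same size required, 0 members were called in D10 repopulated against D10, as Vcam1 lies under it. At an adjusted p under 0.01, 2 members (Icam1 and Vcam1) were called in D10 repopulated less ND repopulated through ND. With the covariance of the shared ND samples taken off, 2 members were called in D10 repopulated less D8 depleted through ND, Icam1 (adjusted p = 0.0476) and Vcam1 (0.0148), by the normal test on the authors' values. That covariance was estimated from tables that may have been fitted separately. It raised the count of all genes called to 1792, against 170, in this difference, to 1806, against 483, in D10 repopulated less ND repopulated, and to 85, against 0, in D10 less D8, where no member was called. For single members in the 8 comparisons there were 280 alternatives (both FDR p thresholds, the log2 size, the level filter and no filter). Of these, 275 gave the same call or missing call as reported. The 5 that lost a call are the ones just named, with 2 under the threshold and 3 under the log2 size. Many of the 275 could not differ, because a stricter rule cannot add a call and a looser threshold cannot remove one. The level filter left out no member. The 275 are therefore no measure of how firm the calls are.

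No paired analysis was possible because the tables hold no values per sample and the labels give no shared replicate numbers. Leaving out single samples could not be run for the same reason, so what any 1 sample contributes is unknown. The depth is unknown, and Sele, Selp and Itgal are low in ND.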
